A study of Mus musculus with 6 samples.

Results

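The vehicle dorsal root ganglia of this series were described on their own: 3 of the 6 libraries deposited, chosen by their titles as vehicle replicates 1 to 3 and called pool 1, pool 2 and pool 3 here. Each pool held ganglia of lumbar levels 3, 4 and 5, taken on the side of the injected paw from 4 female wild-type C57BL/6 mice aged 8 to 10 weeks that had received vehicle. The tissue was kept in RNAlater, and total RNA was made into stranded libraries read as single reads of 75 nucleotides. The other 3 libraries of the series were not used. Each pool is an average over its 4 animals, so the spread between pools is not the spread between mice, and levels are those of whole ganglia with the nerve root, sheath and blood they carry.

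Sensory neurons with their cell bodies in the dorsal root ganglia bring touch, position, heat, cold, itch and pain signals from the limbs and trunk into the spinal cord. Large neurons with myelinated axons serve touch and muscle sense, and small neurons with unmyelinated or thinly myelinated axons serve pain, itch and temperature. Satellite glial cells wrap each cell body, Schwann cells ensheathe the axons, and fibroblasts, vessels and macrophages fill the rest of the ganglion. In bulk tissue, fewer cells of a type and less RNA per cell cannot be told apart.

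Reads counted in genes were 17967934, 19546519 and 19917055 in pools 1, 2 and 3. Of 38926 gene symbols listed, 24377 had a read in at least 1 pool and 19855 in all 3. A count of 0 allows a level of up to 0.151 to 0.167 reads per 1000000 reads in genes (CPM) in a library, taking 3 reads as the limit and covering counting error only. A mean of at least 1 CPM was reached by 15512 genes, of which 14160 were nuclear protein-coding, and 72 genes reached 1000 CPM. Xist, the RNA that coats the inactive X chromosome, was at 581 to 685 CPM, and the 4 Y-linked genes checked had 0 to 2 reads in each pool. Log2 levels of any 2 pools had a Pearson r of 0.986 to 0.988 over the 15512 genes, which are not independent replicates.

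Most of the counted RNA was protein-coding. Nuclear protein-coding genes held 88.8% ± 1.23 of the reads in genes, and the mitochondrial genome 6.01% ± 0.69 (SD, n = 3 pools). Small and structural RNAs held 2.52% ± 0.42, led by Rn7sk, the RNA that holds back the elongation factor P-TEFb, and Rpph1, the RNA of ribonuclease P. The 10 most abundant genes took 9.71% ± 1.03 of the reads and the 1000 most abundant 48.5% ± 0.37. mt-Rnr2, the large ribosomal RNA of the mitochondrion, had the most reads of any gene, at 50186, 40869 and 38637 CPM in pools 1, 2 and 3. Malat1, a nuclear long non-coding RNA, was at 5861, 5354 and 7819 CPM. Cytosolic ribosomal protein genes held only 0.554% ± 0.066 of the reads and haemoglobin genes 0.315% ± 0.085.

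Genes of myelin and of the axon skeleton were among the protein-coding genes with the most reads. The nuclear protein-coding genes with the most reads, a rank that also grows with gene length, included Ahnak (a giant scaffold protein), Map1b (a microtubule-associated protein of axons), Mbp (myelin basic protein), Nefl (neurofilament light chain) and Pmp22 (a peripheral myelin membrane protein). Mbp was at 4694, 3482 and 3386 CPM. Map1b was at 2778, 5026 and 4968 CPM. Pool 1 was thus highest for the myelin gene and lowest for the neuronal gene, and the same opposition returns in the lists described further on.

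For a comparison between genes, levels were taken per length, as CPM per kilobase of exon (RPKM), and on that scale the median of the 14160 genes was 5.88. Hbb-bs (a beta globin of red cells) led these genes at 2750 ± 804 RPKM, and other abundant genes were Sncg (gamma-synuclein, of sensory and autonomic axons) at 1401 ± 119, Pmp22 at 1217 ± 254 and Ptgds (prostaglandin D synthase, of the leptomeninges and nerve sheath) at 1069 ± 334. Of the 25 genes highest per length, the neuronal ones were Sncg, Nefl, Uchl1, Tuba1a, Tubb3, Calca and Prph, of which Calca makes the pain peptide CGRP and Prph an intermediate filament of peripheral neurons. Apod, Apoe and Sparc, secreted products of glia and connective tissue, and Tmsb4x, Actb, Calm2, Eef1a1, Hsp90ab1, Rplp1, Tppp3 and Fstl1 were also among them. S100a9, a calcium-binding protein of neutrophils, stood at 649 RPKM.

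Several genes that most cells use had few or no reads. Alignments that were not unique made up 34.5% to 40.5% of all those tallied, where a read with several alignments can be tallied more than once. mt-Co3, mt-Atp6, mt-Nd3 and mt-Nd4l had no read, and mt-Co2 2 reads in pool 2, whereas mt-Co1 was at 5244 to 6206 CPM and mt-Cytb at 2330 to 2623 CPM. Of the stretches of 75 nucleotides in the transcripts of those 5 genes, 97.8% to 99.9% also occur in another annotated gene, against 39.8% in mt-Co1 and 0% in mt-Cytb and mt-Nd1. mt-Atp8 also had no read, with 0% of its stretches shared. Gapdh, a common reference gene of glycolysis with 22.6% of its stretches shared, was at 2.56 ± 0.36 CPM and Ppia, with 11.5% shared, at 5.84 CPM, whereas Eef1a1, with 26.6% shared, was at 1268 CPM. Pgk1 was at 13.3 CPM, with 52.8% shared. The part of shared sequence in these low counts was not tested. Values of Hba-a1, Hba-a2, Hbb-bs, Hbb-bt, Tuba1a, Tuba1b, Igf2 and Pmp2 are uncertain because 51.5% to 86.4% of their stretches are shared.

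All 18 general sensory neuron markers, the defining genes of the labelled tissue, were above 10 CPM. Together they summed to 9290, 11906 and 11822 CPM, with a median of 51.5 RPKM per gene. Nefl was at 2393, 3095 and 3265 CPM and Prph at 1010, 1210 and 1104 CPM. Avil (advillin, an actin-binding protein found in nearly all of these neurons) was at 385, 551 and 509 CPM. Of the transcription factors that set sensory identity, Pou4f1 (Brn3a) was at 88.5, 117 and 104 CPM and Isl1 at 53.4, 63.2 and 58.3 CPM. Per length they stood at 22.1 and 14.7 RPKM, against 142 RPKM for Avil. Slc17a6, the glutamate transporter that loads their synaptic vesicles, was at 202 ± 29.7 CPM.

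Markers of every main neuron class were present. Peptidergic nociceptor genes summed to 1578, 1667 and 1649 CPM, of which Calca gave 58.7%. Calca, at chr7:114631478-114636357 on the minus strand, was at 980, 935 and 955 CPM, a ratio of highest to lowest pool of 1.05. Tac1, the substance P precursor, was at 47.0 ± 2.73 RPKM. Smr2, a marker of a smaller peptidergic class, was at 1.56, 1.28 and 1.66 CPM.

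Genes of non-peptidergic and itch neurons summed to 1775, 2465 and 2136 CPM. Ret, the signalling receptor of the GDNF family, was highest in this list at 82.5 ± 14.9 RPKM, and Scn11a, the persistent sodium channel of pain neurons, followed at 78.5 ± 17.1 RPKM. Mrgprd, the receptor that marks the largest non-peptidergic class, was at 132, 184 and 160 CPM. Per length it reached 0.0890 ± 0.0165 of the level of Calca, taken within each pool. The itch receptor Mrgpra3 was at 10.1 ± 1.16 CPM, and Nppb and Sst, peptides of another itch class, at 9.47 ± 2.32 and 6.201 ± 0.965 CPM.

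The 6 genes of the low-threshold touch neurons with unmyelinated axons summed to 291, 393 and 303 CPM. Th, tyrosine hydroxylase, which marks this class in the ganglion, was at 66.6, 98.8 and 60.9 CPM, so pool 2 was the highest and the other pools were close. Slc17a8, their vesicular glutamate transporter, was at 17.7 ± 4.62 CPM. Myelinated touch and muscle-sense neurons were marked by Nefh (neurofilament heavy chain) at 725, 1087 and 1288 CPM, Kcna1 (a potassium channel of their axons) at 479 ± 47.1 CPM and Pvalb (parvalbumin) at 45.4 ± 12.5 CPM. Pvalb is also a gene of fast skeletal muscle and belongs to both lists. Runx3, a factor of muscle-sense neurons, was at 3.04 ± 0.19 CPM.

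Myelinating Schwann cell genes had the highest median of the cell type lists described here, at 92.7 RPKM per gene. The 15 genes summed to 18449, 13055 and 13011 CPM, with Mbp and Pmp22 among the most abundant. Prx, which links Schwann cell membrane to its skeleton, was at 1026 CPM on average and Egr2, the transcription factor that drives myelination, at 34.5, 29.7 and 16.7 CPM. Non-myelinating Schwann cell genes summed to 4047, 4144 and 4000 CPM, with Apod giving 54.9%. Satellite glial genes summed to 5653, 5122 and 5571 CPM. Apoe, the lipid carrier these cells secrete, led that list at 848 ± 55.1 RPKM, followed by S100b at 387 ± 35.6 RPKM, and both are made by Schwann cells as well. Fabp7, a fatty acid carrier typical of satellite glia, was at 126, 129 and 238 CPM, so pool 3 stood above the other pools, which were alike. Kcnj10, their potassium channel, followed the same order at 24.4, 30.8 and 42.0 CPM. The list as a whole was split: of its 16 members 8 were highest in pool 3, 7 were highest in pool 1, and 5 were lowest in pool 3. Of all genes with a mean of at least 10 reads per library, 34.7% were highest in pool 3, 39.9% highest in pool 1 and 27.3% lowest in pool 3.

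Connective tissue genes were close to the neuronal list in level, with a median of 48.7 RPKM per gene. Fibroblast and sheath genes summed to 12282, 8140 and 13061 CPM. Dcn (decorin, a matrix proteoglycan) was at 2203, 1808 and 1585 CPM. Col1a1 (collagen type I) was at 1332, 868 and 2785 CPM, so pool 3 held more than either other pool. Igfbp6 and Cldn1, genes of the perineurial and meningeal layers, were at 279 ± 39.0 and 174 ± 21.2 CPM. Endothelial genes summed to 531 to 635 CPM, led per length by Cdh5 (the cadherin of vessel walls) at 19.97 ± 3.41 RPKM, and pericyte and smooth muscle genes summed to 772 to 874 CPM, led by Vtn and Rgs5.

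Resident and blood-borne immune genes were also present. Macrophage and monocyte genes summed to 1084, 805 and 946 CPM, with a median of 8.90 RPKM per gene. Lyz2 (lysozyme) was at 329 ± 73.6 CPM, the complement genes C1qa, C1qb and C1qc at means of 39.7 to 46.1 CPM and Csf1r, the growth factor receptor of macrophages, at 95.0 ± 8.87 CPM. Neutrophil and granulocyte precursor genes summed to 1583, 906 and 1192 CPM. S100a9 was at 450, 248 and 318 CPM, and Mpo and Elane, made in immature granulocytes of the marrow, at 25.6 ± 9.03 and 6.26 ± 1.72 CPM. B-lineage genes were led per length by Ighm, the heavy chain of IgM, at 42.2 RPKM, followed by Igkc, the kappa light chain, at 25.3 RPKM and Ebf1, which other cells of the ganglion also make, at 16.4 RPKM. Rag1, the recombinase of lymphocyte precursors, was at 7.01, 3.89 and 10.6 CPM. No T or NK cell gene reached 10 CPM, the 3 CD3 chains Cd3d, Cd3e and Cd3g had means between 0.313 and 0.774 CPM, and the mast cell genes Cpa3, Mcpt4, Cma1 and Tpsb2 had means between 8.39 and 11.4 CPM. Red cell genes summed to 4715, 3727 and 3076 CPM, of which Hbb-bs gave 55.0%, and the dividing-cell list to 287, 201 and 376 CPM, led by Mki67.

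Marker lists of neighbouring tissues were also measured. Skeletal muscle genes summed to 135, 185 and 693 CPM, adipocyte genes to 166, 44.05 and 168 CPM, and bone and cartilage genes to 110, 71.4 and 163 CPM. The spinal cord glia list summed to 498 to 617 CPM, but Cnp, which Schwann cells share, gave 50.5% of it. Of its 12 members 10 reached 1 CPM and 6 reached 10 CPM, among them Mobp at 53.5 and Slc1a2 at 48.9 CPM. The oligodendrocyte genes Olig2 and Opalin were at 0.573 and 0.321 CPM. The central and motor neuron list summed to 9.26 to 23.1 CPM, led by Slc6a5 at 4.81 CPM. Of its 11 matched members 5 reached 1 CPM and 0 reached 10 CPM. Mnx1 had no read and Chat was at 0.211 CPM. Sympathetic neuron genes summed to only 4.86 to 5.98 CPM, with Hand2 at 0 in every pool and Dbh at 0.0338 CPM. Among epidermal genes Krt5 and Flg had no read, and the list summed to 9.44 to 11.4 CPM.

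**Figure D1:**
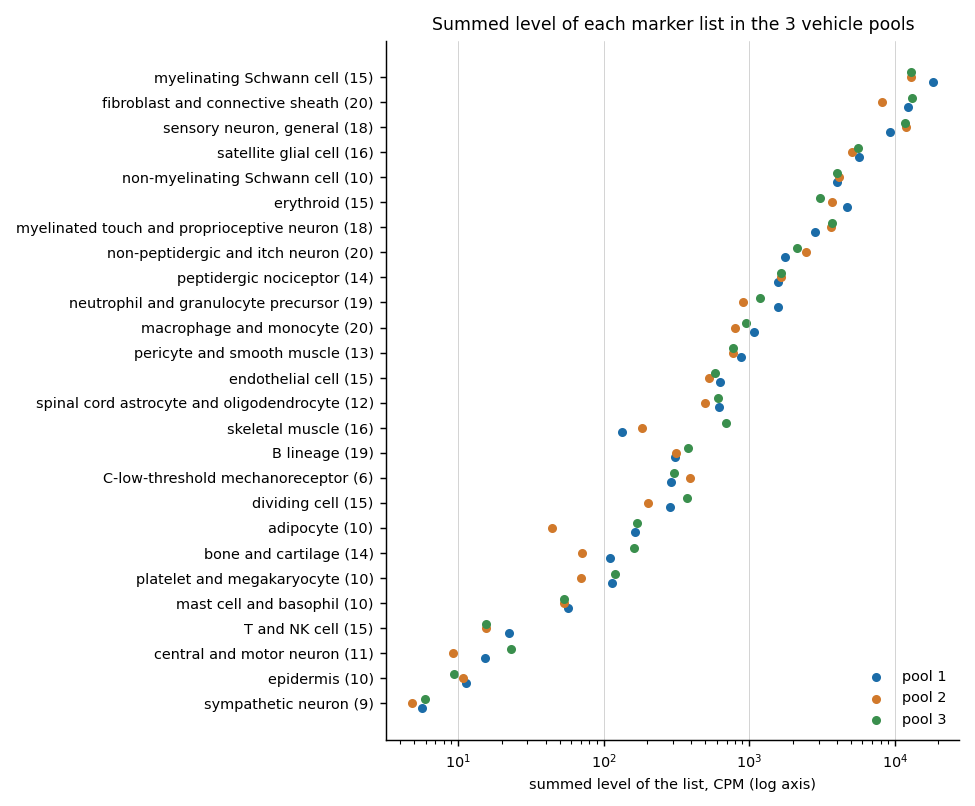
Summed level of 26 marker lists (number of matched genes in brackets) in CPM on a log axis, with 1 point for each of the 3 vehicle pools. Myelinating Schwann cell genes summed highest and sympathetic neuron genes lowest, and the widest separation between pools is in the skeletal muscle list (135, 185 and 693 CPM).

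Calca stood apart among the neuropeptide precursors. It was at 568 ± 13.4 RPKM, and its range over the pools did not overlap that of the next gene, Scg2 (secretogranin II) at 101 ± 12.5 RPKM. Scg2, Calcb (the second CGRP gene, 95.4 ± 10.6) and Nmb (neuromedin B, 93.8 ± 10.3) overlapped in their ranges, and Tac1 came next and apart from them. The ratio of Calca to Tac1 per length was 12.4, 11.2 and 12.8 in pools 1, 2 and 3. In reads the means of Calca and Tac1 were 957 and 160 CPM. Bdnf, the neurotrophin that nociceptors release in the spinal cord, was at 24.97 ± 0.995 CPM, Gal (galanin) at 4.98 ± 0.23 CPM and Nts (neurotensin) at 9.53 ± 1.60 CPM. Npy, Vip, Cck and Grp were each below 0.4 CPM, and Iapp had no read. Of the 27 precursors, 16 reached 1 CPM.

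Receptors for neurotrophic factors were led by Ngfr (the p75 neurotrophin receptor) at 98.9 ± 14.1 RPKM and Ret at 82.5 RPKM, which overlapped. The GDNF co-receptors Gfra2 (for neurturin) and Gfra1 (for GDNF) were at 32.3 ± 5.12 and 31.1 ± 3.38 RPKM and also overlapped. Ntrk2, the BDNF receptor, was at 10.8 RPKM and Ntrk3, the receptor of NT-3 on muscle-sense neurons, at 2.12 RPKM. In reads Ntrk2 and Ntrk3 were at 208 and 63.8 CPM, against 114 CPM for Gfra2 and 170 CPM for Gfra1. Their low place per length thus rests on the long total of their annotated exons. Gfral, whose known site is the hindbrain, had 1 read in pool 3 and none elsewhere.

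All 14 voltage-gated sodium channel genes were above 1 CPM. Among them Scn11a, Scn7a (a sodium-sensing relative found in non-myelinating Schwann cells) and Scn10a (the tetrodotoxin-resistant channel of nociceptors) lay between 77.1 and 78.5 RPKM with overlapping ranges. Scn10a, at chr9:119608456-119719322 on the minus strand, was at 451, 744 and 647 CPM. Its level per length was 2.08 ± 0.10 times that of Scn9a, the channel whose loss abolishes pain in people. The ratio was 1.99, 2.19 and 2.08 in the pools although the level of each gene was lowest in pool 1. In reads the means of Scn10a and Scn9a were 614 and 470 CPM. Scn3a, which is mainly embryonic, was the lowest at 0.664 ± 0.045 RPKM.

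Piezo2, the mechanical channel of touch and position sense, led the TRP and Piezo genes at 25.6 ± 6.49 RPKM, and its range overlapped that of Trpv1 (the heat and capsaicin channel) at 24.0 ± 2.77 RPKM. Trpa1 (the irritant channel) at 13.9 ± 1.502 RPKM and Trpv2 at 13.1 ± 1.35 RPKM came below both and overlapped each other. Trpm8, the cold channel, was at 24.7, 42.4 and 32.8 CPM. Trpv5, Trpv6 and Trpm1, genes of gut, kidney and retina, were each below 0.1 CPM. P2rx3, the ATP receptor of nociceptors, led its group at 43.3 ± 5.37 RPKM and stood apart from Asic2 and Asic3 at 13.2 and 12.3 RPKM, and Asic5 had no read. The mu opioid receptor Oprm1 was at 18.3, 30.7 and 32.1 CPM and the delta receptor Oprd1 at 7.68, 13.8 and 13.5 CPM, both lowest in pool 1, whereas the kappa receptor Oprk1 was at 2.24 ± 0.11 CPM.

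Hox genes, whose set differs with position along the body, were low per length. Hoxa7 (10.5 ± 0.52 RPKM), Hoxa10 (9.90 ± 0.29) and Hoxd8 (9.49 ± 1.04) were highest and overlapped, and Hoxa9 followed at 6.85 ± 0.79 RPKM. Hoxa11 and Hoxd11 were at 1.75 and 1.73 CPM and Hoxc11 at 0.244 CPM. The group 12 and 13 genes, which mark the tail end of the body, were at 0.135 CPM or below, and Hoxd12 had no read. Of the 38 matched Hox genes 29 reached 1 CPM, so their order was measured with few reads and 25 of 28 neighbouring pairs overlapped. Among sensory transcription factors Tlx2, Klf7, Prdm12, Tlx3 and Pou4f1 lay between 22.1 and 31.9 RPKM, while Neurog1 and Neurog2, which act in the embryo, were below 0.1 CPM.

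Structural genes had a clear order. Nefl (863 ± 137 RPKM) was above Prph (554 ± 50.04), and Prph above Nefh (259 ± 71.4), with no overlap of neighbours, whereas Nefh, Nefm (202 ± 58.4) and Vim (145 ± 22.9) overlapped in turn. Nefl and Nefm overlap on opposite strands of chromosome 14, and how strand was treated in the counting is not known here. The neuronal tubulin Tubb3 (669 ± 87.1 RPKM) overlapped Tuba1a and was above Tubb5 (322 ± 24.7). The list of immediate early genes, many of which rise soon after stimulation or injury, was led by Jund and Jun at 69.4 and 19.7 RPKM. Fos was at 7.95 ± 0.47 CPM, Atf3, a marker of axon injury, at 7.13 ± 0.95 CPM, and Egr4, Npas4 and Fosl1 below 0.2 CPM.

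**Figure D2:**
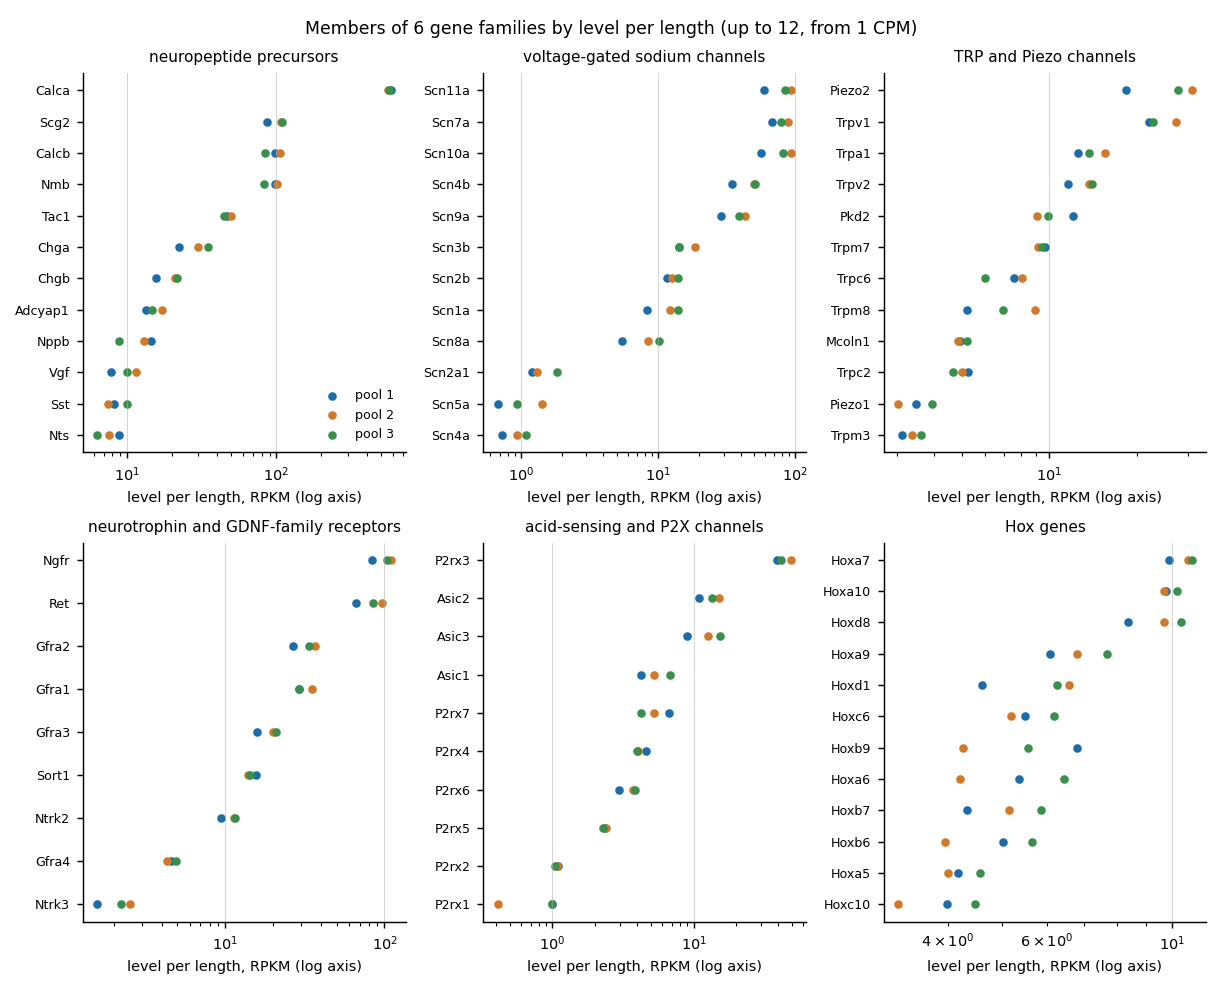
Level per length (RPKM, log axis) of up to 12 members, at 1 CPM or more, of 6 gene families in the 3 vehicle pools, 1 point per pool. Calca stands apart from the other peptide precursors at 568 RPKM, while Scn11a, Scn7a and Scn10a lie together at 77.1 to 78.5 RPKM.

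The pools differed by more than counting noise in many genes. With a chi-square test of the 3 counts of each gene and Benjamini-Hochberg adjustment, 7899 of 16577 genes with at least 10 reads per library passed (47.7% of those tested), which compares these 3 libraries and no conditions. The median coefficient of variation (CV, the SD over the mean) was 10.6%, against 4.98% from counting alone, and the common biological CV from edgeR was 0.131. The share that passed rose with level, from 26.3% of genes at 1 to 10 CPM to 89.7% at 100 to 1000 CPM and 100% above, so a passed test in an abundant gene says little about its size. Sizes were mostly small: of 10902 genes at 10 CPM or more, 831 had a highest pool at least 1.5 times the lowest, 132 (1.21%) at least 2 times and 35 at least 3 times. Without pool 1 the number that passed was 4223, and without pool 2 or pool 3 it was 5679 and 5929. Fewer libraries by themselves tend to lower this number.

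**Figure D3:**
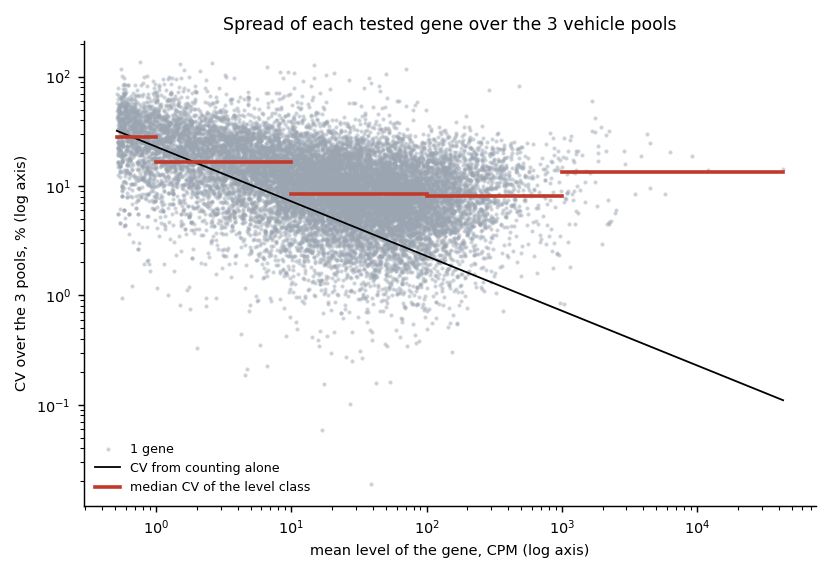
CV over the 3 vehicle pools (%, log axis) against mean level (CPM, log axis) for 16577 tested genes, 1 grey point each, with the CV that counting alone gives (black line) and the median CV of each level class (red lines). The median is close to the counting line below 1 CPM (28.1% against 27.1%) and far above it at 100 to 1000 CPM (8.14% against 1.81%).

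Some genes had a CV over the pools no larger than counting alone gives. Among genes at 100 CPM or more, the smallest CV was that of Rmnd5a, a subunit of a ubiquitin ligase, at 153, 153 and 154 CPM (CV 0.30%, against 1.85% from counting alone). Fgfr1op2, Tmem33, Brd2, Emc10, Cul1, Myl12b, Atp5o, Morf4l2 and Lamp2 followed with CVs of 0.50% to 0.72%, each also under its CV from counting (1.19% to 2.27%), so their order is not resolved at this depth. Lamp2 nevertheless passed the chi-square test (adjusted p 0.0196), which uses TMM-scaled library sizes, whereas the CV uses unscaled totals. Hprt, a common reference gene, was at 153, 157 and 145 CPM, and Actb at 2309, 2124 and 2281 CPM. The CV of Actb was 4.45%, against 0.48% from counting. B2m, also used as a reference, was at 355, 324 and 229 CPM, lowest in pool 3.

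Pool 1 was rich in myelin and poor in neuronal transcripts. All 15 myelinating Schwann cell genes were highest there and all 15 passed the test, with a median deviation of 0.36 (log2, from the mean of the 3 pools), against 0.02 for all tested genes. Over all tested genes 39.9% were highest in pool 1 and 47.7% passed, and the share that passed was 89.7% at 100 to 1000 CPM. The deviation was 0.24 without pool 3. Such a value is taken from the mean of the pools left, which by construction tends to make it smaller. Gjb1, the gap junction protein of myelin, was at 35.01, 19.7 and 18.5 CPM, and Pmp2 at 289, 168 and 162 CPM. In the same pool 17 of 18 general sensory neuron genes were lowest, with a median deviation of -0.22 (-0.14 without pool 2), and 12 of 14 sodium channel genes, with -0.33, whereas 33.2% of all tested genes were lowest in pool 1. Nefm was at 815, 1197 and 1488 CPM and Prune2, a large gene of adult sensory neurons, at 1428, 2758 and 2471 CPM.

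Not all neuronal genes followed. Calca was marginally highest in pool 1, and the peptidergic list deviated by -0.14 there with 8 of 14 members lowest. Pool 1 also differed by gene length over the whole table: the 2640 shortest of the protein-coding genes had a median deviation of 0.07 and the 2638 longest -0.05, and its share of non-unique alignments was the highest. The small nucleolar RNAs Snord17, Rnu3a and Snora74a were among the 10 genes furthest above the other pools in pool 1, with Snora74a at 74.5, 36.2 and 29.6 CPM. The part of gene length and of non-unique alignment in the pool 1 pattern was not tested.

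Pool 2 was poor in fat, connective tissue and blood-cell precursor transcripts. All 9 tested adipocyte genes were lowest there, with a median deviation of -1.18, and all 9 passed, against 39.6% lowest in pool 2 and 47.7% passed over all tested genes. Cfd (adipsin), at chr10:79890853-79892655 on the plus strand, was at 74.1, 14.1 and 64.0 CPM, Adipoq (adiponectin) at 15.2, 4.76 and 14.9 CPM and Fabp4 (the fat cell fatty acid carrier) at 32.7, 11.2 and 44.6 CPM. In each of these genes pools 1 and 3 lay together and pool 2 far below. Ucp1, the uncoupling protein of brown fat, was at 1.17, 0.0512 and 0.452 CPM. In the same pool 18 of 18 tested neutrophil and granulocyte precursor genes were lowest (median deviation -0.37), 15 of 15 dividing-cell genes (-0.45), 17 of 20 fibroblast genes (-0.36), 13 of 13 bone and cartilage genes (-0.78) and 13 of 15 endothelial genes (-0.12), while the median deviation of all tested genes was -0.03. Of the 15 endothelial genes 7 passed the test, a share close to that of all tested genes. Without pool 1 the deviation was -0.22 for the neutrophil and -0.17 for the fibroblast list, and without pool 3 it was -0.27 for the dividing-cell list.

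Transcripts of muscle genes were far higher in pool 3 than in the other pools. All 16 skeletal muscle genes were highest there and all 16 passed, with a median deviation of 1.53 and a median CV of 97.6% against 10.6% for all tested genes, of which 34.7% were highest in pool 3 and 47.7% passed. Myh4, the fastest myosin heavy chain of limb and trunk muscle (chr11:67238029-67260446, plus strand), was at 13.6, 31.9 and 164 CPM, 12.1 times higher in pool 3 than in pool 1. Acta1, skeletal actin, was at 16.3, 22.9 and 112 CPM and Mylpf, a fast muscle light chain, at 3.78, 3.99 and 36.3 CPM. Myh7, the slow myosin, differed far less at 5.84, 4.04 and 7.78 CPM. The mean sum of the muscle list was 337.5 CPM over the 3 pools and 160 CPM without pool 3. Among the 20 genes with the largest ratio between pools, 9 were of this list, and Neb (nebulin) and Xirp2, muscle genes outside it, were at 20.8, 25.4 and 86.5 CPM and at 5.73, 5.73 and 25.2 CPM. Pvalb, which neurons share, was at 36.7, 39.8 and 59.8 CPM.

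Bone, B-lineage, dividing-cell and cord glia markers were also mostly highest in pool 3, and most were lowest in pool 2. Over all tested genes 34.7% were highest in pool 3 and 39.6% lowest in pool 2. Of the B-lineage genes 15 of 19 were lowest in pool 2 (median deviation -0.44), and of the cord glia genes 9 of 11 (-0.57). Whether pool 3 was raised or pool 2 reduced was not tested. Of 13 tested bone and cartilage genes 10 were highest there (median deviation 1.08): Acp5, the acid phosphatase of bone-resorbing cells, was at 6.96, 6.04 and 31.1 CPM and Ibsp (bone sialoprotein) at 4.90, 3.17 and 12.2 CPM. The cartilage genes Comp and Col2a1 were instead highest in pool 1, at 32.0, 20.2 and 23.3 CPM and at 20.5, 12.9 and 19.4 CPM. Of the B-lineage genes 14 of 19 were highest in pool 3 (0.43) and of the dividing-cell genes 12 of 15 (0.37), and Mki67 was at 118, 91.5 and 169 CPM. Igj and Igha, which plasma cells make, ran the other way, with Igha at 19.0, 9.16 and 2.96 CPM. Of the spinal cord glia list 9 of 11 tested genes were highest in pool 3 (0.54), including Mobp at 53.4, 32.9 and 74.3 CPM and Slc1a2 at 44.7, 25.5 and 76.6 CPM, and Slc6a5, the glycine transporter of spinal interneurons, was at 4.95, 1.28 and 8.18 CPM. Without pool 2 the deviation in pool 3 was 0.44 for bone and cartilage, 0.20 for B-lineage and 0.24 for cord glia genes, and it was 0.12 for cord glia and 0.50 for bone and cartilage genes when members under a mean of 50 reads were left out. Whether tissue from around the ganglia was carried along in pool 3 was not tested. How many animals gave rise to these values cannot be told from pooled RNA.

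**Figure D4:**
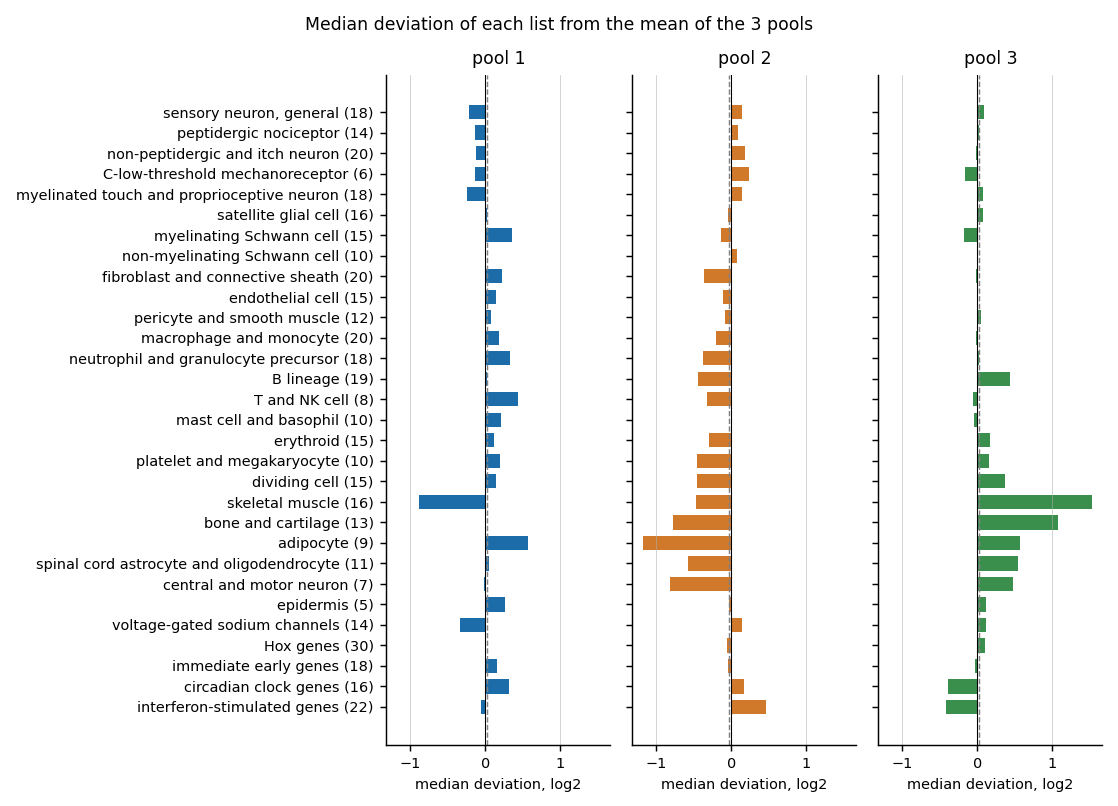
Median deviation (log2) of the tested members of each list from the mean of the 3 pools, 1 panel per pool, with the number of tested members in brackets and the median over all 16577 tested genes as a dashed line. The skeletal muscle bar reaches 1.53 in pool 3 and the adipocyte bar -1.18 in pool 2, while satellite glial and Hox genes stay within 0.10 of zero in every pool.

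Interferon-stimulated genes were highest in pool 2. These genes are switched on by type I interferons through the factor complex ISGF3 and act against viruses. Of 22 members 19 were highest in pool 2 and 20 lowest in pool 3, 20 passed the test, and the median deviation was -0.05, 0.47 and -0.42 in pools 1, 2 and 3. Over all tested genes 25.4% were highest in pool 2, 27.3% were lowest in pool 3 and 47.7% passed. The deviation in pool 2 was 0.29 without pool 3. Ifit1, which binds foreign RNA caps, was at 28.2, 83.7 and 23.5 CPM, 3.56 times higher in pool 2 than in pool 3. Ifit3, its partner, was at 29.3, 51.5 and 16.7 CPM, and 41.1% of its stretches of 75 nucleotides are shared with 1 other gene. Usp18, a brake on the same receptor, was at 6.62, 16.9 and 4.92 CPM and Irf7 at 15.1, 23.3 and 8.84 CPM. Outside the list, Cd274 (the ligand PD-L1), Gbp2, Gbp7, Igtp and Irgm2, genes known to respond to interferons, were among the 10 that stood most above the other pools in pool 2, with Gbp2 at 39.6, 65.1 and 26.0 CPM. Oas1a and Oas3 did not pass, at 3.90, 3.73 and 3.36 CPM and 10.7, 9.82 and 8.59 CPM. Macrophage genes were lowest in pool 2 in 14 of 20 cases, against 39.6% of all tested genes.

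The promoters of these genes were searched for the core of the ISGF3 site, because the members moved together. In RefSeq windows on GRCm38.p6, 250 bases before to 50 after each start, the letters GAAA standing 2 times with 2 bases of any kind between them, on either strand, were found for 9 of the 14 list members with a window, and for 3.99% of all 27025 genes (3.44% of windows). Of the matching genes that were highest in pool 2, the 3 with the largest ratio between pools are printed here. They run 5′ to 3′ and only up to the start, with the matches in capitals. A match on the other strand appears as its reverse complement, with T for A and C for G. Ifit1 is chr19:34640639-34640888 and Ifit3 chr19:34583279-34583528, both on the plus strand, and Bst2, the tetherin that holds budding viruses, is chr8:71537473-71537722 on the minus strand.
Ifit1: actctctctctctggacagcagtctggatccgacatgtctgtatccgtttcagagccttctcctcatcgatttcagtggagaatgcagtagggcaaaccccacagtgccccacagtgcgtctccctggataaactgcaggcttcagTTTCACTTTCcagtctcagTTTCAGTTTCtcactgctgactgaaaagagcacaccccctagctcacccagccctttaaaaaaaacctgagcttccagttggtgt
Ifit3: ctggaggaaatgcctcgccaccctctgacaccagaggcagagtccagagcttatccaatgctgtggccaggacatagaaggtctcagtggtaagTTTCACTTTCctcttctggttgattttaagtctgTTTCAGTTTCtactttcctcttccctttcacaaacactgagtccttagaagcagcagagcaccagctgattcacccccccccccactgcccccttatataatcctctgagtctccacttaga
Bst2: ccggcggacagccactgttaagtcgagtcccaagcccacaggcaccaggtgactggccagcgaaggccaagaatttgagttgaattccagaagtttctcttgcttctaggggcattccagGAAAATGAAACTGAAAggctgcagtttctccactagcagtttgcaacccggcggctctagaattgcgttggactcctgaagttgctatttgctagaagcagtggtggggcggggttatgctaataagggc
Ifit1 and Ifit3 each hold 2 matches on the other strand, beginning 104 and 85 bases and 156 and 122 bases before the start, and Bst2 holds 2 overlapping matches from 130 and 124 bases. Oasl2, Irf7, Ifi44, Xaf1 and Ifit2 had no match in their windows although each was highest in pool 2. Oas1a and Oas3 had a match although both were highest in pool 1 and did not pass the test. These are letter matches, not measured binding, and the motif was chosen after the values had been seen.

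Clock genes set pool 3 apart. The circadian clock is a daily loop in which the factors Clock and Bmal1 (gene Arntl) switch on the Per, Cry, Nr1d and Dbp genes. The products of the Per, Cry and Nr1d genes then shut the loop down. Of 16 members 11 were lowest in pool 3, 13 passed the test, and the median deviation was 0.32, 0.17 and -0.39, against 27.3% lowest in pool 3 and 47.7% passed over all tested genes. Dbp, an output factor of the clock, was at 82.3, 80.8 and 18.6 CPM, a ratio of 4.43. Nr1d1 (Rev-erb alpha, a repressor) was at 48.0, 56.3 and 16.02 CPM, Nr1d2 at 133, 117 and 62.9 CPM, Per3 at 71.6, 65.8 and 32.8 CPM and Per2 at 25.3, 18.5 and 8.03 CPM. In each of these pools 1 and 2 lay together and pool 3 below them. Arntl ran the other way at 5.29, 4.35 and 14.7 CPM, as did Npas2, a Clock relative, at 3.23, 3.48 and 6.78 CPM. Clock itself (118, 114 and 127 CPM) and Cry1 (12.8, 13.4 and 13.8 CPM) did not pass. The labels give no time of day for the collection of the tissue. Dbp overlaps Sphk2, and Nr1d1 overlaps Thra, on the opposite strand.

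The windows of the clock genes were searched for CACGTG, the palindromic E-box that Clock and Bmal1 bind. It was found for 4 of the 13 members with a window (Per1, Cry1, Tef and Bhlhe41) and for 8.09% of all genes (7.15% of windows). TTATGCAA and TTATGTAA, forms of the D-box that Dbp, Tef and Hlf bind, were found on either strand for Per1 alone and Per3 alone, against 0.888% and 1.11% of all genes. Per1 (chr11:69098699-69098948, plus strand) was at 50.5, 39.1 and 22.7 CPM, Tef (chr15:81802423-81802672, plus strand) at 200, 175 and 113 CPM and Bhlhe41 (chr6:145865421-145865670, minus strand) at 40.4, 48.7 and 29.7 CPM. They are printed as the 3 members that were lowest in pool 3 with an E-box, shown in capitals.
Per1: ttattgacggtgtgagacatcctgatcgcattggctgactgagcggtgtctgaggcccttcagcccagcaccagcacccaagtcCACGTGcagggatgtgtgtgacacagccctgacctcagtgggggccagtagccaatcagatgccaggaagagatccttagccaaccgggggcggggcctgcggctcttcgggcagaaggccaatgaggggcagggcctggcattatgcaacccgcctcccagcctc
Tef: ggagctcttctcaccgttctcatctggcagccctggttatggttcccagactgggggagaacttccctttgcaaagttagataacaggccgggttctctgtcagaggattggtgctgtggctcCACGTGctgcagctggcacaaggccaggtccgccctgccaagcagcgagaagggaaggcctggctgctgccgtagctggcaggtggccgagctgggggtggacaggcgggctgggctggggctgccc
Bhlhe41: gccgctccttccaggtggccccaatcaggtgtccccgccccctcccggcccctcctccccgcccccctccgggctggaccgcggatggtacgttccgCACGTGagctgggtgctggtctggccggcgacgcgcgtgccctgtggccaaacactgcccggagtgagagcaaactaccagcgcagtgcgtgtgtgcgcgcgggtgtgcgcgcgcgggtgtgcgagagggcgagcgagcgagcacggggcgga
The E-box begins 166, 127 and 153 bases before the start in Per1, Tef and Bhlhe41. Dbp and Nr1d1, the members with the largest ratios, had no CACGTG in these windows, which says only that these letters are not in this stretch. These motifs too were chosen after the values had been seen.

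**Figure D5:**
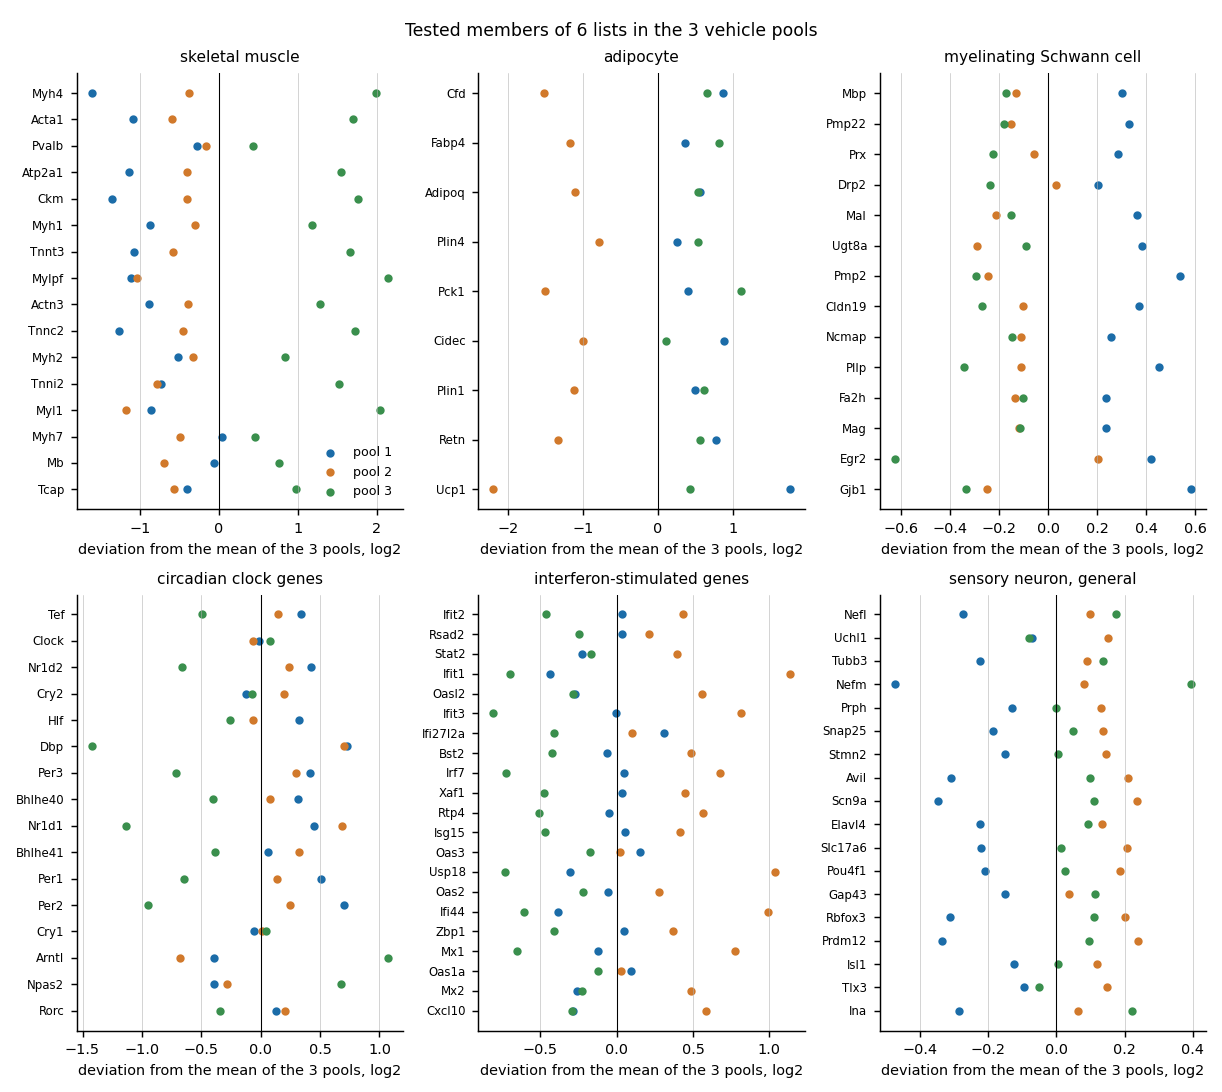
Deviation (log2) of tested members of 6 lists, each from its mean over the 3 vehicle pools, 1 point per pool, ordered by level with the most abundant gene shown at the top. Pool 3 is alone on the right for all 16 skeletal muscle genes, pool 2 alone on the left for all 9 adipocyte genes, and in the clock panel Arntl and Npas2 lie opposite to Dbp, Nr1d1, Per2 and Per3.

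Egr2 bridged 2 of these patterns. As a myelination factor it was highest in pool 1, but at 16.7 CPM it was also among the 10 genes furthest below the other pools in pool 3. Immediate early genes as a list were slightly higher in pool 1 (13 of 18 members highest there, median deviation 0.15), against 39.9% of all tested genes. Of the 18 members 9 passed the test, a share close to the 47.7% of all tested genes. Egr1 ran the other way at 15.6, 19.3 and 21.0 CPM. Dio2, an enzyme that activates thyroid hormone and a gene of brown fat and glia, was at 29.7, 10.2 and 76.5 CPM, and Col11a2, a minor collagen of cartilage and tendon, at 15.2, 9.62 and 54.5 CPM.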

How the data were processed

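Ganglia of 3 vehicle pools were measured by RNA sequencing, with groups and numbers as the titles give them; the name of 1 deposited table numbers vehicle replicate 3 as 4. The authors' deposited tables hold unnormalised counts for each gene symbol, made with STAR, SAMtools and HTSeq on mm10 (GRCm38), per the submitters' processing notes; no version, annotation or strand setting was given in the sources used here. The counter's closing summary lines were dropped, and CPM was computed on each library's own total and averaged over the pools. Symbols were matched to GENCODE M21 on GRCm38 (37410 of 38926, 1754 of them through a synonym), whose union exon length gave RPKM. This length counts every annotated exon, so RPKM is low where a gene's main transcript uses only some of them. The spread between pools was tested for genes with a mean of at least 10 reads per library by a chi-square test with 2 degrees of freedom against TMM-scaled library sizes (edgeR 4.0.16, R 4.3.3), with Benjamini-Hochberg adjustment and a threshold of 0.05, and was checked on simulated counts. With 1 test for each gene over 3 libraries, p-values measure only the spread between these pools. A deviation is log2 of (count + 0.5) per library total minus its mean over the pools, and a list's value is the median over tested members. The comparison of the libraries pairwise showed no copies. Deposited counts are per gene, so depth (17967934 to 19917055 reads in genes) limits genes of low count most.

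There were 26 marker lists and 15 families, with 7 of 660 entries unmatched, and some genes belong to several lists. Members and lists were chosen with earlier results of these data known. Named genes are the 25 highest by CPM, the 25 nuclear protein-coding genes highest by RPKM, up to 6 highest and up to 4 lowest members per list, the 20 largest ratios and 10 smallest CVs, and the 10 genes furthest above or below in each pool. Others, such as Gjb1, Usp18, Arntl, Npas2, Smr2, Egr1, Igj, Comp and Mobp, were chosen after their values were seen. Promoter windows are from RefSeq. DESeq2 1.42.0 gave alternative scaling. The vincristine libraries were left out because only the vehicle ganglia are described. Some list members are not reported here by name, in the text or the plots of single genes, and stay in the counts, sums and medians of their lists.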

Additional observations from a re-analysis of the deposited data

How the results depend on the processing

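No paired analysis was possible because a single group was described and no groups were compared. Scaling the libraries by TMM or by DESeq2 size factors, or thinning them to the smallest, moved no result run with them beyond its limit. That limit was the spread between pools for shares and list levels, and the spread between members for list deviations. It was the counting error for gene ratios, and a fixed fold for counts of genes and CVs. None of the 15 list deviations run, 1 pool for each of 15 lists, changed sign under these or the other alternatives run on them. Each was taken in a pool where the list stood high or low, so a change of sign was unlikely from the start. Leaving out mitochondrially encoded genes and ribosomal RNA, which raises every other share by construction, changed the share of the 10 most abundant genes to 5.64% and of nuclear protein-coding genes to 94.7%. The summed CPM then became 1740 for peptidergic nociceptor, 5814 for satellite glial, 4335 for non-myelinating Schwann and 58.4 for mast cell genes. With genes under a mean of 50 reads left out, sums fell by construction: 6.65 CPM for T and NK, 49.4 for mast cell, 6.11 for epidermal and 0 for sympathetic genes, and the deviation of the spinal cord glia list in pool 3 became 0.12, since fewer members remained. With the longest transcript as gene length the median RPKM was 59.6 for general sensory neuron, 56.1 for satellite glial, 64.1 for fibroblast, 13.996 for endothelial and 12.1 for macrophage genes. Without a filter on low counts the median CV was 16.4%. Leaving out 1 pool at a time gave 4223 to 5929 genes beyond counting noise, the lowest without pool 1. Fewer libraries by themselves tend to lower that number. Each deviation was taken from the mean of the pools left, which by construction tends to make it smaller. The deviation was then 0.24 to 0.26 for myelinating Schwann genes in pool 1, -0.37 to -0.22 for neutrophil genes and -0.41 to -0.27 for dividing-cell genes in pool 2. In pool 3 it was 0.44 to 0.93 for bone and cartilage, 0.20 to 0.44 for B-lineage and 0.24 to 0.56 for cord glia genes, and in pool 2 it was -0.28 to -0.17 for fibroblast and 0.29 to 0.44 for interferon-stimulated genes. At these depths the median CV of genes under 1 CPM was 28.1%, against 27.1% from counting alone.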
